A study of Homo sapiens with 6 samples.

Results

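The 7 genes described here encode inhibitors of the cyclin-dependent kinases (CDKs) and a pair of p53-linked checkpoint proteins: CDKN1A (p21), CDKN1B (p27), CDKN1C (p57), CDKN2C (p18INK4C), CDKN2D (p19INK4D), MDM2 and GADD45A. They were taken by gene symbol, with earlier results of these data known. Each of the 7 was found once among the 41471 symbols of the knockdown table and once among the 34157 symbols of the rebastinib table. The cells were MDA-MB-231, a triple-negative breast cancer line, which as background has lost the CDKN2A and CDKN2B locus. In the first experiment a lentivirus gave the cells stable expression of a hairpin RNA, either scramble shRNA as the control or 1 of 2 hairpins against the atypical CDK gene CDK16, named CDK16-sh1 and CDK16-sh2, and the study's methods say that infected cells were sorted to make stable lines. In the second, cells received the vehicle DMSO, or rebastinib (Reb), a kinase inhibitor used in the study to block CDK16, at 1 µM or 5 µM for 48 h. Each of the 6 conditions had 1 library, so no difference below has a replicate check, and the intervals given cover counting error only.

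CDK inhibitors hold the cell cycle back by binding cyclin-CDK complexes. The CIP/KIP proteins p21, p27 and p57 bind complexes of CDK2, CDK1 and cyclins E, A and B, and also bind cyclin D complexes, whereas the INK4 proteins bind CDK4 and CDK6 alone and keep D-type cyclins away from them. In cells with working p53, DNA damage raises p21 and GADD45A, and MDM2, itself a p53 target, sends p53 to degradation. Several of these genes also answer to stress pathways that do not need p53. The p53 status of these cells is not given in the sources used here and was not tested. The levels below therefore cannot be read as a measure of p53 activity.

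Total counts ranged from 25838443 to 50303269 per library. Mitochondrial genes took 16.2% of the counts in CDK16-sh2 and 16.4% in 5 µM Reb, against 7.19% to 11.3% in the other 4 libraries, and the 100 most abundant genes took 35.3% in 5 µM Reb, against 24.3% to 31.3% elsewhere. Changes are log2 fold changes of counts scaled to library size (CPM) by TMM, a method that sets libraries level on the bulk of their genes. The part of the mitochondrial and most abundant genes in the results was not tested. Scaling by library totals in place of TMM moved the median of all genes by -0.68 at 5 µM Reb and by -0.19 in CDK16-sh2, so values by library totals stand beside those that turn on it. CDK16 itself had 3223 counts in scramble, 1360 in CDK16-sh1 and 846 in CDK16-sh2, a log2 fold change of -1.52 (95% interval -1.61 to -1.43) and -1.82 (-1.93 to -1.71). Of the marker genes of the line, VIM stood at 177 to 833 RPKM (reads scaled by gene length in kilobases and by the library's total) and CD44 at 31.8 to 81.0 RPKM in the 6 libraries. The hormone receptor genes ESR1 and PGR had at most 16 counts in any library. The receptor gene ERBB2 was transcribed, at 5.06 to 5.69 RPKM in the knockdown libraries. The keratin genes KRT8 and KRT18 stood there at 85.8 to 175 RPKM and 87.5 to 121 RPKM. Of the immune, endothelial and liver markers, PTPRC had at most 35 counts, CD3E at most 8, VWF at most 19, ALB at most 1 and PECAM1 4 to 154, while CD68, which many tumour lines transcribe, stood at 106 to 235 RPKM.

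Read per length, GADD45A and CDKN2D were the most abundant of the 7 transcripts in every library, and MDM2 and CDKN1C were the least abundant. In scramble cells CDKN2D stood at 41.0 RPKM and GADD45A at 38.1 RPKM, 2 levels whose 95% Poisson intervals overlapped. CDKN2C followed at 16.4 RPKM, then CDKN1B at 14.1 RPKM and CDKN1A at 13.9 RPKM, the last pair again with overlapping intervals, then MDM2 at 1.79 RPKM and CDKN1C at 0.359 RPKM. In DMSO the order was GADD45A at 36.1, CDKN2D at 32.2, CDKN1A at 10.9, CDKN1B at 9.96, CDKN2C at 8.78, MDM2 at 2.27 and CDKN1C at 0.553 RPKM, with an overlap between CDKN1A and CDKN1B alone. At 5 µM Reb the spread between the genes widened, from 101 RPKM for CDKN2D and 260 RPKM for GADD45A down to 0.813 RPKM for MDM2, below CDKN1C at 1.07 RPKM, although the intervals of these 2 overlapped.

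**Figure D1:**
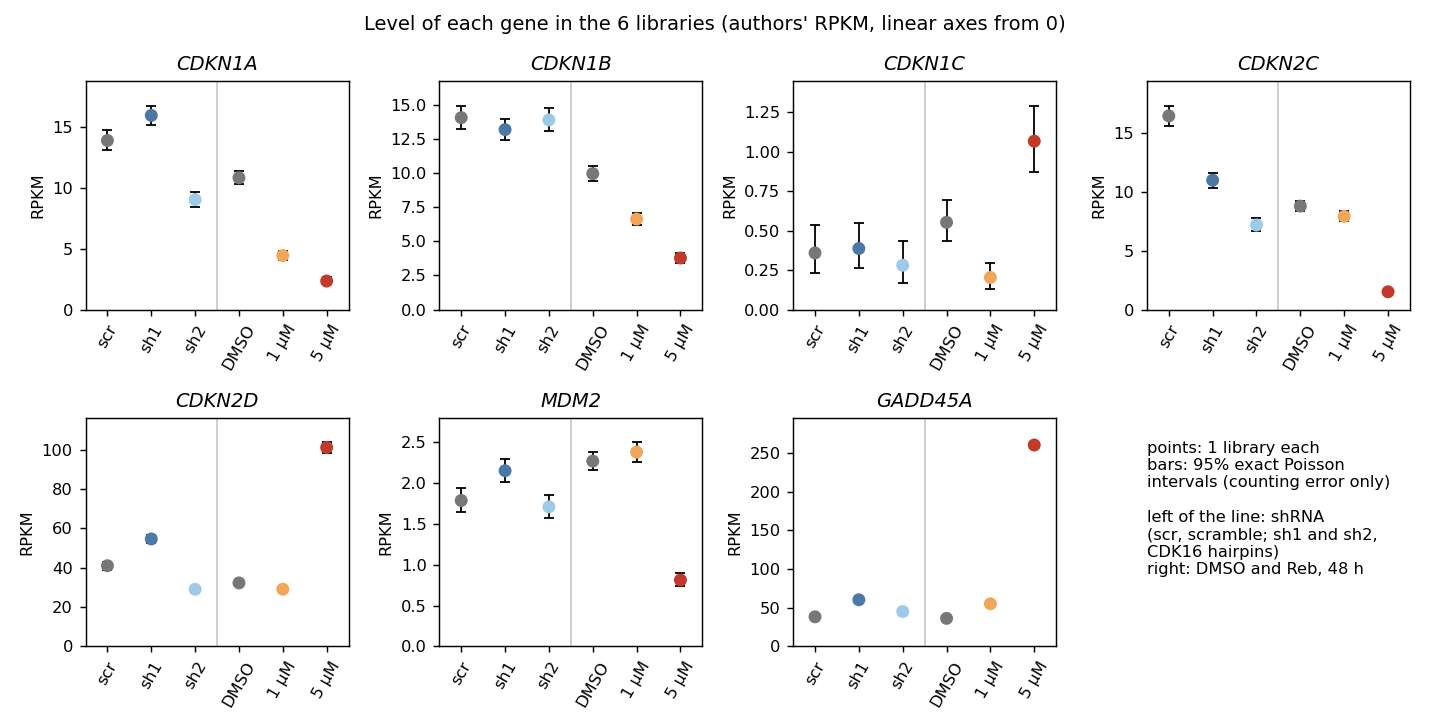
Level of each of the 7 genes (RPKM, linear axes that start at 0) in the scramble, CDK16-sh1, CDK16-sh2, DMSO, 1 µM Reb and 5 µM Reb libraries. Each point is 1 library and the bars are 95% exact Poisson intervals. GADD45A reached 260 RPKM and CDKN2D 101 RPKM at 5 µM Reb, while CDKN1A, CDKN1B, CDKN2C and MDM2 had their lowest RPKM there. RPKM is scaled by library totals.

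Neither hairpin moved any of the 7 genes past 2-fold, whereas at 1 µM Reb 2 genes were at least 2-fold lower, and at 5 µM 3 were higher and 2 lower under TMM. By library totals the split at 5 µM turned to 2 higher and 4 lower, and 1 gene, CDKN2C, was past 2-fold lower in CDK16-sh2. Under TMM, past 2-fold lay CDKN1A and CDKN1C, both lower at 1 µM, and at 5 µM GADD45A, CDKN2D and CDKN1C, all higher, with CDKN1A and CDKN2C lower. Tested were all genes whose mean in the experiment reached 1 CPM. Of these, 4.33% were at least 2-fold higher and 6.86% at least 2-fold lower in CDK16-sh1, and 2.2% and 7.62% in CDK16-sh2. The shares were 1.28% higher and 1.92% lower at 1 µM Reb, and 23.6% higher and 27.2% lower at 5 µM. At 5 µM a 2-fold change was therefore common in the whole transcriptome under TMM. No such share over all genes was counted by library totals, here or for the gene lists below. CDKN1C did not reach the CPM minimum in the knockdown experiment and reached it in the Reb experiment only with the 5 µM library counted in, since its mean over DMSO and 1 µM was 0.979 CPM.

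**Figure D2:**
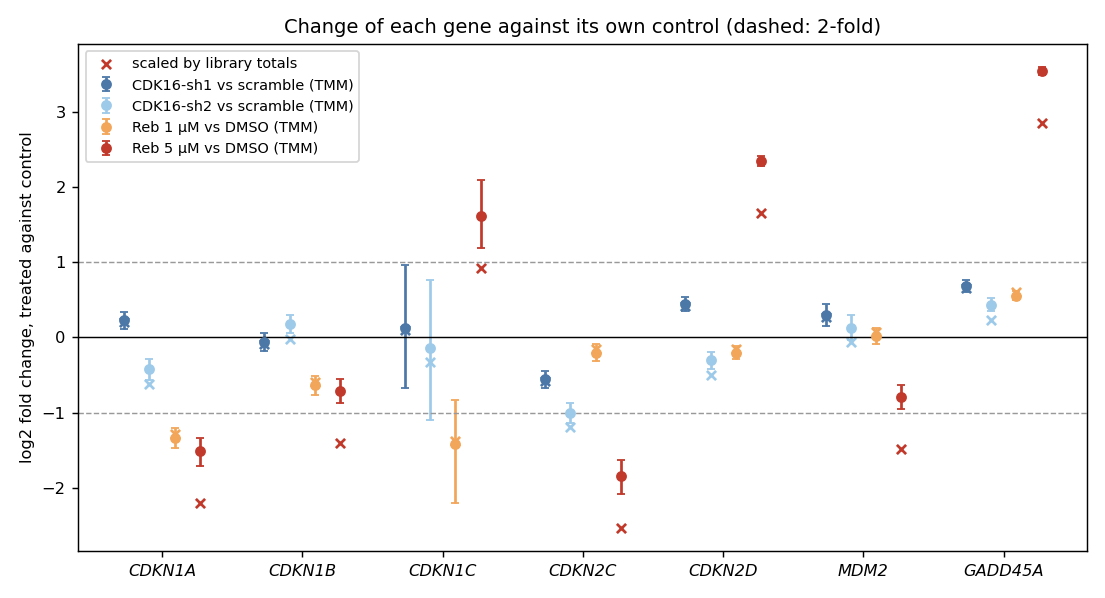
Log2 fold change of each of the 7 genes against its own control, scramble or DMSO. Circles are TMM-scaled values with 95% Clopper-Pearson intervals, crosses are the same changes scaled by library totals in the colour of their comparison, and dashed lines mark 2-fold. Only Reb values lie past the dashed lines under TMM, and GADD45A at 5 µM is the highest, at 3.54.

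The CIP/KIP genes. CDKN1A, which encodes p21, lies on chromosome 6 from 36676460 to 36687339 of GRCh38 on the plus strand. It was lower in both Reb libraries and lay on opposite sides of scramble with the hairpins. In bulk RNA, fewer cells that transcribe a gene and less of its RNA per cell cannot be told apart. Its RefSeq promoter window (250 bases before to 50 after an annotated start, assembly GRCh38.p14, chr6:36678464-36678763, plus strand) is shown so that its letters can be compared with those of CDKN1B and CDKN2D. At 5 µM Reb CDKN2D was higher while CDKN1A and CDKN1B were lower, and at 1 µM each of these genes was lower. Capitals in the CDKN1A window mark GC boxes (GGGCGG on either strand), letters that Sp1-type factors bind.
CDKN1A promoter: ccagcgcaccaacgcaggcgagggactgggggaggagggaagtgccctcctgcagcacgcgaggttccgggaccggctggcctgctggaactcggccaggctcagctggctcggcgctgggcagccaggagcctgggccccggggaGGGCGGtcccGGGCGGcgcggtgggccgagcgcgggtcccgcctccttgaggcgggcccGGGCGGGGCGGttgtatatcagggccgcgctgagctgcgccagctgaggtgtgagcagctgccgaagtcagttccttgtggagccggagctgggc
The window holds 4 GC boxes, at -104, -94, -45 and -40 from the start, and no CCAAT box. Of all 35116 RefSeq promoter windows of this length, 44.95% hold a GC box. Half-sites of p53 were counted only as exact matches to RRRCWWGYYY (R is A or G, W is A or T, Y is C or T). A pair of these at most 13 bases apart was in none of the 10 windows found for CDKN1A, CDKN1B, CDKN2C, CDKN2D and MDM2, and in 0.03% of all windows. Half-sites with a mismatch and sites outside the windows were not searched. The count therefore cannot show that these genes lack a p53 site.

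In the knockdown experiment CDKN1A had 1097 counts in scramble, 1558 in CDK16-sh1 and 759 in CDK16-sh2, or 13.9, 16.0 and 9.05 RPKM. The log2 fold change was 0.23 (0.12 to 0.34) for CDK16-sh1 and -0.42 (-0.56 to -0.29) for CDK16-sh2. The hairpins thus lay on either side of the control, and CDK16-sh2 was lower than CDK16-sh1 by a log2 difference of -0.65 (-0.78 to -0.53). The small positive value of CDK16-sh1 turned to -0.12 once trends with GC content and gene length were removed. In the Reb experiment the counts were 1666 in DMSO, 670 at 1 µM and 270 at 5 µM, or 10.9, 4.45 and 2.35 RPKM. CDKN1A was 2.52-fold lower at 1 µM, a log2 fold change of -1.33 (-1.47 to -1.21), with 0.83% of the genes tested lying lower. At 5 µM it was 2.85-fold lower, at -1.51 (-1.71 to -1.33), with 17.1% of genes lying lower. The difference between the doses, -0.18 (-0.39 to 0.03), held 0 under TMM, while library totals put it at -0.92.

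The study measured p21 and p27 mRNA by quantitative PCR as well, and the primers are given because they show which stretch of each transcript that assay reads. All 4 lie in coding sequence of GENCODE 29. Bases in lower case carry no mark.
p21 forward: cgatggaacttcgactttgtca
p21 reverse: gcacaagggtacaagacagtg
p27 forward: aacgtgcgagtgtctaacgg
p27 reverse: ccctctaggggtttgtgattgt
The p21 primers match chr6:36684243-36684264 and chr6:36684442-36684462, in 7 of 8 annotated CDKN1A transcripts. The p27 forward primer matches chr12:12717846-12717865 in 2 of 4 CDKN1B transcripts. The reverse primer of p27 had no exact match, and its closest site, chr12:12718033-12718054, differed by G21C (the primer's base, the position from 1 at the primer's 5′ end, then the base of the site). In that assay the study reported p21, p27 and Bax as up-regulated after CDK16 knockdown. Log2 fold changes here, CDK16-sh1 then CDK16-sh2, were 0.23 and -0.42 for CDKN1A and -0.06 and 0.18 for CDKN1B. BAX stood at 0.60 and 0.19, the latter -0.0087 by library totals. Why the assay and the counts differ for CDKN1A and CDKN1B was not tested.

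CDKN1B encodes p27 and lies on chromosome 12 from 12715058 to 12722371, plus strand. Its level was higher in CDK16-sh2 than in CDK16-sh1 by a log2 difference of 0.24 (0.12 to 0.36), or 0.08 by library totals. It was lower in both Reb libraries than in DMSO. Its promoter window (chr12:12717118-12717417, plus strand) has capitals at the CCAAT boxes (CCAAT on either strand), letters bound by NF-Y.
CDKN1B promoter: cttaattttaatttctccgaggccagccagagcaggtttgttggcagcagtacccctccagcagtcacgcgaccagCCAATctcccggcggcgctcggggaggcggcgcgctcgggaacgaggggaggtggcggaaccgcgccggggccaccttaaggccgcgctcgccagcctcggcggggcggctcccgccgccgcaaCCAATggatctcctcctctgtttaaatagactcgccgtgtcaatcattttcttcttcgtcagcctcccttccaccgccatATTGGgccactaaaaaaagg
The window holds 3 CCAAT boxes, at -174, -50 and 30, where 34.61% of all windows hold at least 1, and 1 GC box. CDKN1B had 1021 counts in scramble, 1184 in CDK16-sh1 and 1074 in CDK16-sh2, or 14.1, 13.2 and 13.9 RPKM. The log2 fold change was -0.06 (-0.18 to 0.06) for CDK16-sh1, an interval that held 0, and 0.18 (0.05 to 0.30) for CDK16-sh2, which became -0.02 under library totals. Counts under Reb were 1408 in DMSO, 920 at 1 µM and 400 at 5 µM, or 9.96, 6.63 and 3.78 RPKM. The log2 fold change was -0.64 (-0.76 to -0.52) at 1 µM and -0.71 (-0.87 to -0.55) at 5 µM, short of 2-fold at both doses. Library totals gave -0.59 and -1.39, past 2-fold at 5 µM. The difference between the doses, -0.07 (-0.24 to 0.10), held 0 under TMM, while library totals put it at -0.81.

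CDKN1C encodes p57, an imprinted gene of chromosome 11 (2883213 to 2885881, minus strand), and was the scarcest of the 7. It had 24 counts in scramble, 32 in CDK16-sh1 and 20 in CDK16-sh2. The intervals of both hairpins held 0, -0.67 to 0.97 for CDK16-sh1 and -1.09 to 0.76 for CDK16-sh2, so no difference under about 2-fold was detectable at this depth. Under Reb the counts were 72 in DMSO, 26 at 1 µM and 104 at 5 µM. CDKN1C was lower at 1 µM, with a log2 fold change of -1.41 (-2.20 to -0.83), and higher at 5 µM, with 1.61 (1.19 to 2.09), so the doses lay on either side of the control. By library totals the higher value at 5 µM was 0.93, short of 2-fold.

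The INK4 genes. CDKN2C encodes p18INK4C, lies on chromosome 1 from 50960745 to 50974633, plus strand, and was the gene of the 7 with a lower level in all 4 treated libraries under TMM (by library totals CDKN1B was a second). It had 1409 counts in scramble, 1164 in CDK16-sh1 and 655 in CDK16-sh2, or 16.4, 10.98 and 7.18 RPKM. The log2 fold change was -0.55 (-0.67 to -0.44) for CDK16-sh1. For CDK16-sh2 it was -0.996 (-1.13 to -0.86), a 1.99-fold lower level that missed 2-fold narrowly, and library totals gave -1.19. In CDK16-sh2 7.66% of the genes tested lay lower. Under Reb it had 1466 counts in DMSO, 1296 at 1 µM and 189 at 5 µM, or 8.78, 7.91 and 1.51 RPKM. CDKN2C was close to its control at 1 µM, at -0.20 (-0.31 to -0.09), and 3.58-fold lower at 5 µM, at -1.84 (-2.07 to -1.63), or -2.53 by library totals.

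CDKN2D encodes p19INK4D, the other INK4 protein these cells transcribed, on chromosome 19 from 10566462 to 10569059, minus strand. It went the other way from CDKN2C at 5 µM Reb. Its promoter window (chr19:10568930-10569229, minus strand, printed 5′ to 3′ on that strand) has capitals at GC boxes.
CDKN2D promoter: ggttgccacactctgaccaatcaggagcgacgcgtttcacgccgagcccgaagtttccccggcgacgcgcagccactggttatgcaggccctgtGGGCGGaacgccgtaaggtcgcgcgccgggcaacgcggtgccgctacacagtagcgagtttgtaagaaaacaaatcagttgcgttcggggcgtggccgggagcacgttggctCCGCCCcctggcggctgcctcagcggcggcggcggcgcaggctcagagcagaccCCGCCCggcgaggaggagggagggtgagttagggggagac
The window holds 3 GC boxes, at -156, -44 and 10 and 1 CCAAT box. The windows of CDKN2C, which are not printed, hold 0, 6 and 1 GC boxes. CDKN2D had 1591 counts in scramble, 2621 in CDK16-sh1 and 1198 in CDK16-sh2, or 41.0, 54.6 and 28.99 RPKM. Its log2 fold change was 0.44 (0.35 to 0.53) for CDK16-sh1 and -0.30 (-0.41 to -0.19) for CDK16-sh2, again on either side of scramble, as for CDKN1A. With GC and length trends removed the value of CDK16-sh1 was -0.06. Under Reb it had 2436 counts in DMSO, 2154 at 1 µM and 5722 at 5 µM, or 32.2, 29.03 and 101 RPKM. It was close to DMSO at 1 µM, at -0.20 (-0.29 to -0.12), and 5.06-fold higher at 5 µM, at 2.34 (2.27 to 2.41), above 94.6% of the genes tested. Library totals gave 1.65 at 5 µM. The remaining INK4 genes were silent: CDKN2A had 0 counts in 5 libraries and 4 at 5 µM Reb, and CDKN2B had 0 counts in the 3 knockdown libraries, where a count of 0 allows up to 3 counts.

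The p53 checkpoint genes. MDM2, the ubiquitin ligase of p53, lies on chromosome 12 from 68808176 to 68850686, plus strand, and shares 785 of its 13269 exonic bases with the antisense gene RP11-611O2.5, 439 with RP11-611O2.3 on its own strand and 133 with the antisense gene CPM. The strand setting of the count is not given in the sources used here, so reads of these stretches cannot be told apart. MDM2 had 613 counts in scramble, 913 in CDK16-sh1 and 624 in CDK16-sh2, or 1.79, 2.15 and 1.71 RPKM. Its log2 fold change was 0.30 (0.15 to 0.45) for CDK16-sh1 and 0.13 (-0.03 to 0.30) for CDK16-sh2, the latter -0.06 by library totals. With GC and length trends removed both values were larger, 0.78 and 0.43. Under Reb the counts were 1516 in DMSO, 1560 at 1 µM and 406 at 5 µM, or 2.27, 2.38 and 0.813 RPKM. The level at 1 µM could not be told from DMSO, at 0.02 (-0.09 to 0.12). At 5 µM it was lower, at -0.79 (-0.95 to -0.63) under TMM and -1.48 under library totals.

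GADD45A encodes a small protein that binds PCNA, p21 and the upstream kinase of stress MAP kinase pathways, and lies on chromosome 1 from 67685061 to 67688338, plus strand. It was the gene of the 7 with a higher level in all 4 treated libraries, and at 5 µM Reb it had the largest change of the 7. It had 2039 counts in scramble, 3979 in CDK16-sh1 and 2558 in CDK16-sh2, or 38.1, 60.2 and 45.0 RPKM. The log2 fold change was 0.69 (0.61 to 0.77) and 0.43 (0.35 to 0.52), a 1.61-fold and a 1.35-fold higher level, above 87.8% and 81.3% of the genes tested. Library totals gave 0.66 and 0.24, and removal of GC and length trends gave 0.47 and 0.38. The counts under Reb were 3759 in DMSO, 5618 at 1 µM and 20283 at 5 µM, or 36.1, 55.0 and 260 RPKM. The log2 fold change was 0.56 (0.50 to 0.62) at 1 µM, above 93.2% of genes, and 3.54 (3.49 to 3.59) at 5 µM, above 98.5% of genes. That is an 11.6-fold higher level at 5 µM, and library totals gave 2.85 on the log2 scale.

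**Figure D3:**
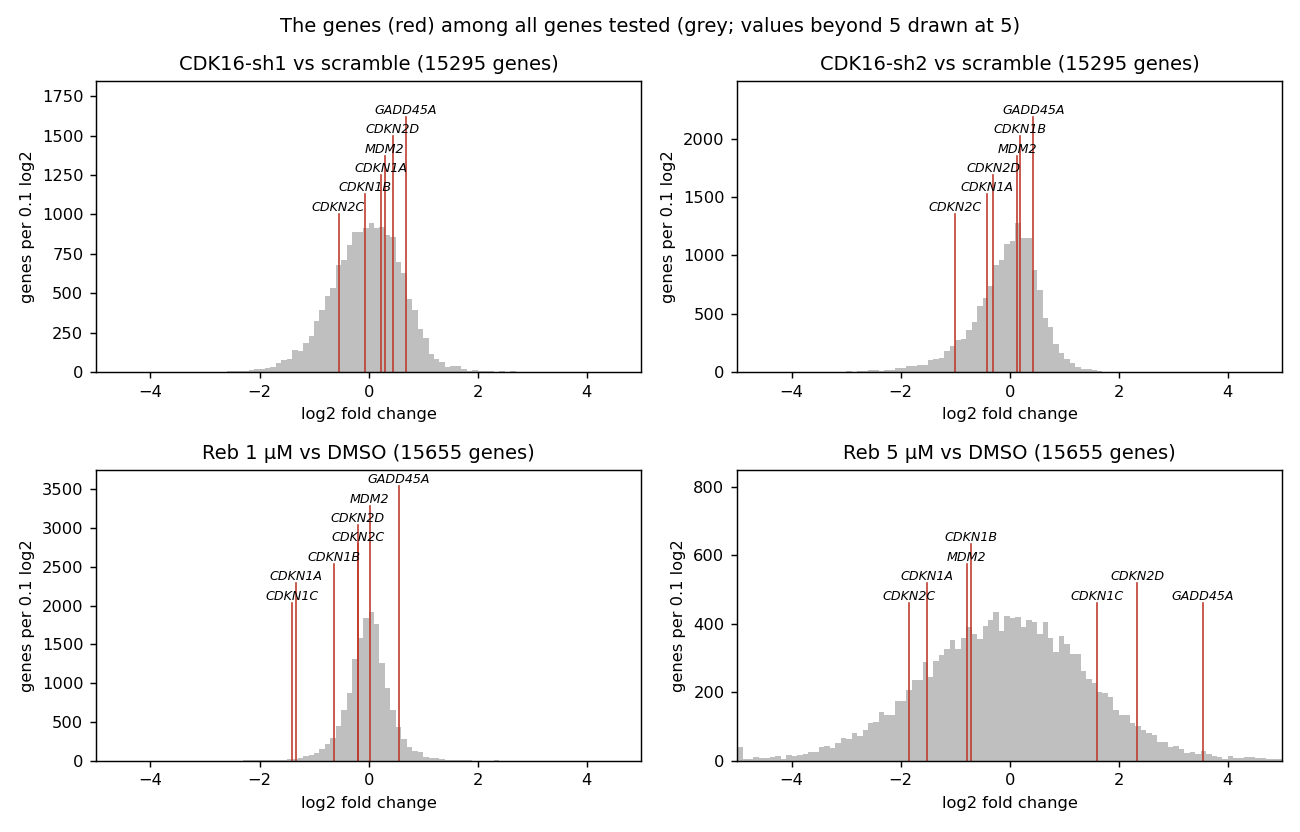
Distribution of the log2 fold change over all genes tested (grey, genes per 0.1 log2 units, values beyond 5 drawn at 5) in each of the 4 comparisons, with the tested genes of the 7 as red lines. The distribution is far wider at 5 µM Reb than at 1 µM, and CDKN1A and CDKN1C stand in the lower tail at 1 µM while GADD45A and CDKN2D stand in the upper part at 5 µM.

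Ratios between 2 genes of the same library do not depend on how libraries are scaled. GADD45A had 2.26 counts for each CDKN1A count in DMSO, 8.38 at 1 µM and 75.1 at 5 µM, a log2 change of the ratio of 1.89 (1.75 to 2.04) and 5.06 (4.86 to 5.25). In the hairpin libraries that ratio was 1.86 in scramble, 2.55 in CDK16-sh1 and 3.37 in CDK16-sh2, higher in both. CDKN2D had 1.66 counts for each CDKN2C count in both DMSO and 1 µM Reb, and 30.3 at 5 µM, a log2 change of 4.19 (3.96 to 4.42). The balance of the INK4 pair was also tilted toward CDKN2D by both hairpins, from 1.13 in scramble to 2.25 in CDK16-sh1 and 1.83 in CDK16-sh2. The ratio of CDKN1B to CDKN1A was higher than in the control in CDK16-sh2 and at both Reb doses, by 0.60, 0.70 and 0.81 on the log2 scale, and lower in CDK16-sh1, by -0.29. These 3 pairs were chosen after their values had been seen.

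**Figure D4:**
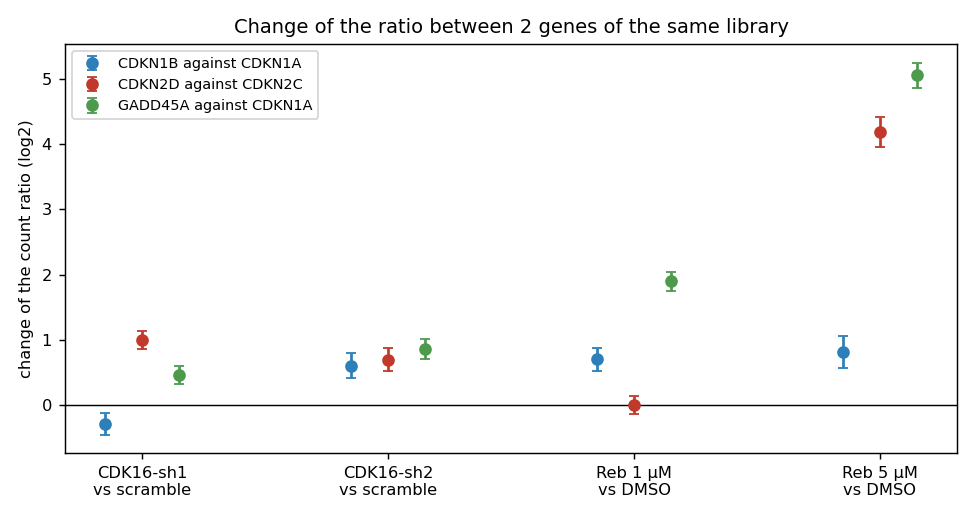
Log2 change of the count ratio between 2 genes of the same library, treated against control, with 95% intervals from Fisher's exact method (counting error only). The ratio of GADD45A to CDKN1A lies above 0 in all 4 comparisons, up to 5.06 at 5 µM Reb, and the ratio of CDKN2D to CDKN2C lies at 0.00032 at 1 µM and at 4.19 at 5 µM.

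A test across all genes was possible only with both treated libraries of an experiment set against the 1 control, so that hairpins or doses that differ add to the spread. With the hairpins together, edgeR's quasi-likelihood test called none of the 15295 genes (0%) at an adjusted p of at most 0.05 and 2-fold, so none of the 7 (382 genes had an unadjusted p under 0.05, none of them among the 7, and DESeq2 called 0 with 233). All 6 of the genes tested had an adjusted p of 0.9997 in edgeR, CDKN2C with the largest pooled log2 fold change, -0.76. With the Reb doses together, edgeR called 12 of 15655 genes (0.0767%) and none of the 7. GADD45A had the largest pooled log2 fold change of the 7, 2.71, with an edgeR adjusted p = 1 and a DESeq2 adjusted p = 0.999. With dose as a linear term, where the change is the rise from DMSO to 5 µM along log2(dose + 1), edgeR called 3832 genes (24.5%), among them 3 of the 7. These were GADD45A, CDKN2D and CDKN2C, with fitted log2 changes from DMSO to 5 µM of 3.63, 2.46 and -1.93. CDKN2D did not rise at each step of dose. It lay below DMSO at 1 µM, at -0.20 (-0.29 to -0.12), and above it at 5 µM, at 2.34. CDKN1A did not pass in this edgeR fit (adjusted p = 0.0687), nor did CDKN1C (adjusted p = 0.0959), MDM2 (adjusted p = 0.318) or CDKN1B (adjusted p = 0.419). The 3 of 7 stand beside a background in which about 1 gene in 4 was called, and the doses were 1 library each, so a change at 5 µM alone can pass.

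The other GADD45 genes were followed beside GADD45A. GADD45B, a paralog, had 1155 counts in scramble, 1548 in CDK16-sh1 and 981 in CDK16-sh2, with log2 fold changes of 0.15 and -0.13. Under Reb it had 814 in DMSO, 1166 at 1 µM and 8783 at 5 µM, with 0.49 and 4.54. GADD45G, the third paralog, had 10, 9 and 2 counts in the knockdown libraries, then 4 in DMSO, 0 at 1 µM and 462 at 5 µM. Its log2 fold change at 5 µM was 7.28 (6.59 to 9.84), and it passed the CPM minimum only through that library. It was not tested in the knockdown experiment. GADD45A and GADD45B were thus both above DMSO at 5 µM Reb past 2-fold, and neither reached 2-fold with a hairpin. GADD45GIP1, whose product binds GADD45 proteins, was higher with both hairpins, at 0.72 and 0.54, and stood at 0.03 and 0.89 under Reb. Of the other genes with a CDK inhibitor name, CDKN3, a phosphatase of CDK2, stood at 0.23 in CDK16-sh1, -1.87 in CDK16-sh2, -0.08 at 1 µM and -0.96 at 5 µM, and CDKN2AIP, a partner of the CDKN2A product ARF, at -0.23, 0.10, -0.20 and 0.28.

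The targets of the inhibitors, 12 kinases, cyclins and PCNA, were compared as log2 fold changes in the order CDK16-sh1, CDK16-sh2, 1 µM Reb and 5 µM Reb. CDK2, which p21 and p27 inhibit, was lower throughout, at -0.82, -0.53, -0.37 and -2.44, and so was CDK1, at -0.98, -0.73, -0.09 and -0.21. CDK4, an INK4 partner, stood at 0.33, 0.25, -0.29 and -0.61, and CDK6, the other one, at -0.12, -0.11, -0.15 and 0.48. The D-type cyclins differed among themselves. CCND1 stood at -0.09, -1.27, 0.11 and -0.36, CCND3 at 0.32, -0.53, 0.09 and -0.75, and CCND2 at 1.57 and 0.62 with the hairpins, while it had 2 to 16 counts in the Reb experiment. Cyclin E genes were higher at 1 µM and lower at 5 µM, with CCNE1 at -0.02, -0.89, 0.73 and -1.35 and CCNE2 at -0.93, -1.73, 0.81 and -3.80. Of the A-type cyclins, CCNA2 stood at -0.68, -0.22, -0.41 and -2.70, and CCNA1 had 4 to 26 counts in the knockdown libraries and stood at -0.04 and -0.10 under Reb. PCNA, which p21 binds at the replication fork, stood at -0.11, -0.67, 0.31 and -0.34. Of the 11 tested in each experiment, 1 was at least 2-fold higher and 0 lower with CDK16-sh1, 0 and 2 with CDK16-sh2, 0 and 0 at 1 µM, and 0 and 4 at 5 µM, with medians of -0.11, -0.53, -0.04 and -0.61, beside medians over all genes of -0.0018, 0.018, 0.0016 and -0.07. By library totals 0 were higher and 8 lower at 5 µM, with a median of -1.30, beside -0.75 over all genes. Under TMM 23.6% of all genes were at least 2-fold higher and 27.2% lower at 5 µM. The shares were 1.28% and 1.92% at 1 µM, 4.33% and 6.86% in CDK16-sh1, and 2.2% and 7.62% in CDK16-sh2.

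Genes that p53 is known to activate, 60 besides the 7, lay on both sides of 0 in every treated library. Of the 55 tested in the knockdown experiment, 2 were at least 2-fold higher and 3 lower in CDK16-sh1, and 0 and 5 in CDK16-sh2, with medians of -0.0019 and 0.07 on the log2 scale. Of the 54 tested under Reb, 2 were higher and 0 lower at 1 µM, with a median of 0.07, and 15 were higher and 17 lower at 5 µM, with a median of -0.20. By library totals 11 were higher and 23 lower at 5 µM, with a median of -0.88, and 0 higher and 8 lower in CDK16-sh2, with a median of -0.13. The medians over all genes by library totals were -0.75 at 5 µM and -0.18 in CDK16-sh2. Under TMM they were -0.0018 and 0.018 with the hairpins, 0.0016 at 1 µM and -0.07 at 5 µM. Of all genes under TMM, 23.6% were at least 2-fold higher and 27.2% lower at 5 µM. The shares were 1.28% and 1.92% at 1 µM, 4.33% and 6.86% in CDK16-sh1, and 2.2% and 7.62% in CDK16-sh2. Among the targets that averaged at least 5 CPM, the lowest shared by both doses, ranked by the smaller change, were BAX, an activator of apoptosis, at -0.64 and -1.40, TNFRSF10B, a death receptor, at -0.59 and -2.10, and EPHA2 at -0.43 and -1.77. The highest by the same ranking were KITLG, the ligand of KIT, at 1.36 and 1.70, PERP, a desmosome gene, at 0.66 and 2.04, and FUCA1, a lysosomal fucosidase, at 0.56 and 1.24. Among targets of that level in the knockdown experiment, TRIM22 stood at -1.18 and -1.07, POLH, a translesion polymerase, at -0.74 and -0.82, and PLK2 at -0.46 and -0.80. FAM210B at 0.40 and 0.51, PLK3 at 0.34 and 0.34 and AEN, a nuclease, at 0.94 and 0.28 stood above scramble in both hairpin libraries. Below that level, and chosen after their values were seen, BBC3, an apoptosis gene, stood higher than these, at 1.29 (0.94 to 1.71) and 0.60 (0.17 to 1.05), and KITLG stood lower than TRIM22, at -1.33 and -2.13. All are differences between single libraries.

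**Figure D5:**
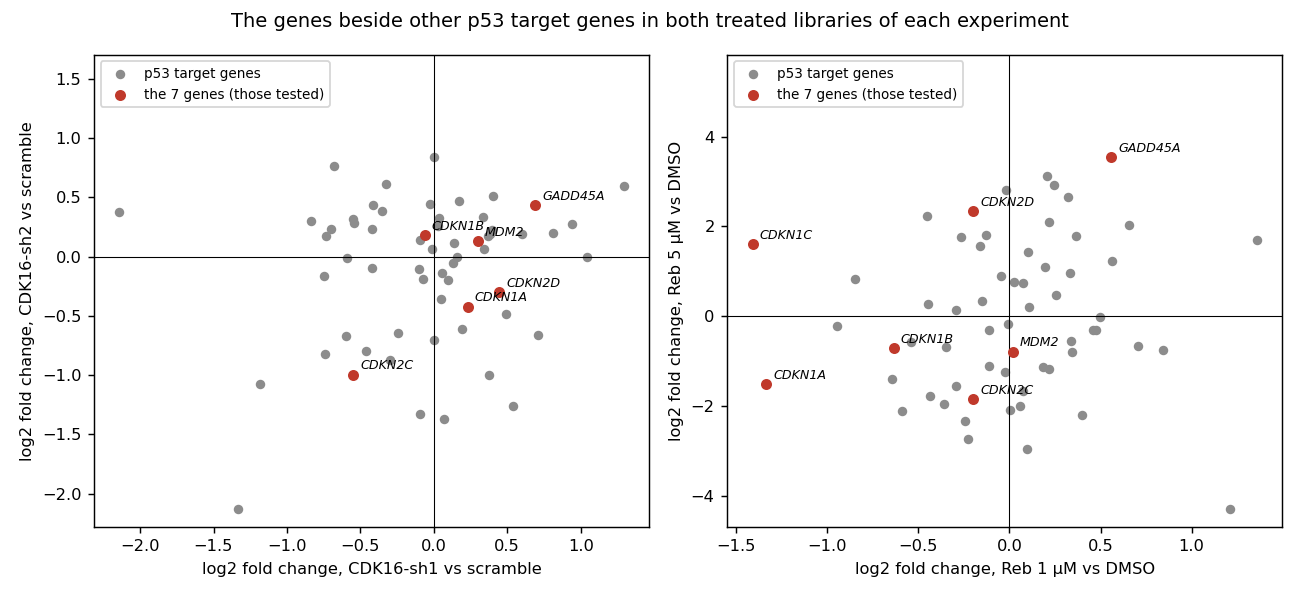
Log2 fold changes of the other p53 target genes, 55 and 54 of 60, that passed the CPM minimum (grey) and of the tested genes of the 7 (red), CDK16-sh2 against CDK16-sh1 on the left and 5 µM against 1 µM Reb on the right. Each pair of libraries shares 1 control. The target genes lie on all sides of 0, with GADD45A high and CDKN1A low in both Reb libraries.

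The regulators of p53 numbered 24, of which 23 were tested. Lower at both doses were KAT5, an acetyltransferase, at -0.65 and -1.32, and PPP1R13L, an inhibitor of p53, at -0.57 and -2.62. Higher at both doses were RFWD2 (COP1), a ubiquitin ligase of p53, at 0.19 and 0.90, RCHY1, another, at 0.13 and 2.31, and TP53BP2 at 0.13 and 3.38. With the hairpins, RPL11 at 0.78 and 0.69 and RPL5 at 0.42 and 0.95, ribosomal proteins that bind MDM2, and RFWD2 at 0.29 and 0.41 stood above scramble in both, while the kinase gene ATM at -0.88 and -0.53, EP300 at -0.39 and -0.41 and SIRT1 at -0.75 and -0.38 stood below it. Counts past 2-fold were 0 higher and 1 lower with CDK16-sh1, 0 and 2 with CDK16-sh2, 0 and 0 at 1 µM, and 10 and 8 at 5 µM, with medians of -0.12, 0.19, 0.03 and 0.43. By library totals 5 were higher and 10 lower at 5 µM, with a median of -0.26, so the balance turned, and the median of CDK16-sh2 was -0.0010. Medians over all genes were -0.07 at 5 µM and 0.018 in CDK16-sh2 under TMM, and -0.75 and -0.18 by library totals. Under TMM 23.6% of all genes were at least 2-fold higher and 27.2% lower at 5 µM.

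Genes whose products degrade p21 and p27 numbered 14, all tested. SKP2, the ubiquitin ligase subunit that recognises p27, stood at 0.85 and 0.73 under Reb, the latter 0.04 by library totals, followed by UBAC1 at 0.36 and 1.21 and CUL1 at 0.27 and 0.57, which was -0.12 by library totals. RNF123 at -0.21 and -1.24, USP19 at -0.19 and -0.41 and PSME3, a proteasome activator of p21 turnover, at -0.17 and -2.32 were lower at both doses. With the hairpins DTL, which targets p21 in S phase, stood at -0.75 and -1.08, CUL4B, its scaffold, at -0.73 and -2.33 and CKS1B, the cofactor of SKP2, at -0.07 and -0.34. SKP1 at 0.21 and 0.26, RBX1 at 0.91 and 0.15 and RNF123 at 0.24 and 0.10 lay above scramble, the last 2 turning to -0.05 and -0.10 in CDK16-sh2 by library totals. Counts past 2-fold were 0 higher and 1 lower with CDK16-sh1, 0 and 2 with CDK16-sh2, 0 and 0 at 1 µM, and 2 and 3 at 5 µM, with medians of -0.07, 0.06, 0.12 and 0.08. By library totals 0 were higher and 6 lower at 5 µM, with a median of -0.61, and the median of CDK16-sh2 was -0.14. All genes had medians by library totals of -0.75 at 5 µM and -0.18 in CDK16-sh2. Their medians under TMM were -0.07 and 0.018, and at 5 µM 23.6% were at least 2-fold higher and 27.2% lower.

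Transcription factors known to act on CDKN1A, CDKN1B, CDKN1C or GADD45A numbered 30, of which 29 were tested. MYC, which represses CDKN1A, was higher with both hairpins, at 1.71 and 1.26, as were BHLHE40 at 0.66 and 0.68 and FOXO4 at 0.60 and 0.71. SP1 at -0.56 and -0.48 and SP3 at -0.87 and -0.45, which bind GC boxes, were lower with both. Under Reb the stress factor gene ATF3 stood at 0.25 and 4.08, HDAC2 at 0.26 and 2.11 and HDAC1 at 0.17 and 0.72, while FOXO4 stood at -0.42 and -0.43, BRCA1, an activator of GADD45A, at -0.39 and -3.54 and CEBPB at -0.89 and -0.37. Counts past 2-fold were 3 higher and 0 lower with CDK16-sh1, 1 and 2 with CDK16-sh2, 0 and 1 at 1 µM, and 15 and 5 at 5 µM, with medians of 0.21, -0.07, -0.15 and 1.00. By library totals 6 were higher and 8 lower at 5 µM, with a median of 0.31, so the balance of the counts turned with the scaling. At that dose the medians over all genes were -0.07 under TMM and -0.75 by library totals. Under TMM 23.6% of all genes were at least 2-fold higher there and 27.2% lower, beside 4.33% and 6.86% in CDK16-sh1.

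The genes most like CDKN1A, MDM2 and GADD45A were ranked by the Euclidean distance over the 4 log2 fold changes among the 10554 genes that averaged 5 CPM or more in each experiment. Nearest to CDKN1A were MSH5 at a distance of 0.476, the read-through gene MSH5-SAPCD1 at 0.515 and ADAMTS6 at 0.529. Nearest to MDM2 were ACBD6 at 0.0629, MRPS16 at 0.0968 and GUSBP11 at 0.101. Nearest to GADD45A were the mitochondrial transfer RNA gene MT-TP at 0.185, PVT1 at 0.312 and RNF139 at 0.342. The 4 values include 2 pairs that share a control library, and the distances are descriptions.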

How the data were processed

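RNA-seq was analysed from 6 libraries of MDA-MB-231 cells. The authors sequenced stranded mRNA libraries and deposited the whole-number read count of each gene symbol in each library, not normalized. The deposited RPKM are the authors' values and equal the counts divided by gene length and library total in 100.0% of cases (tolerance 1e-06). The submitters' processing notes name Trimmomatic, featureCounts, Subread 1.5.1 and GRCh38. The aligner, annotation and strand setting are not given in the sources used here. Total counts ranged from 25838443 to 50303269.

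Log2 fold changes were computed from the counts with edgeR 4.0.16 in R 4.3.3 from TMM-scaled CPM (prior count 2). Genes had to average 1 CPM or more, which left 15295 in the knockdown and 15655 in the Reb experiment. Each 95% interval is Clopper-Pearson for a change and exact Poisson for a level. No molecular identifiers were used, so intervals hold counting error alone. Since each condition had 1 library, the quasi-likelihood test of edgeR, adjusted by Benjamini-Hochberg, set both treated libraries against 1 control, and its p-values measure only the spread between these samples, which may be technical. Simulated data held 200 changed genes, raised and lowered in equal number by the same log2 size, with a median near 3 among the raised. The test called 200 of 200 at a coefficient of variation of 0.1 in each experiment. At 0.4 it called 129 of 200, with 6 unchanged genes called in the knockdown and 2 in the Reb simulation. Each changed gene was given the same change in both treated libraries. The simulation therefore does not show how often smaller changes, or changes that differ between hairpins or doses, would be called.

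The alternatives were DESeq2 1.42.0 size factors and Wald test, library totals, the authors' RPKM plus 0.1, a prior count of 0.5, no filter, a mean of at least 5 CPM, removal of GC and length trends with mgcv 1.9.3, a threshold of 1.5-fold, the adjusted p alone and dose as a linear term. GC content was known for 99.1% of the genes tested. Promoter windows come from RefSeq on GRCh38.p14, and 5 of the 7 genes matched, with 10 windows. Primer positions were found in GENCODE 29 transcripts. From lists of at most 12 genes every gene is named. From longer lists the 3 largest rises and falls are named among genes of at least 5 CPM that moved the same way in the 2 treated libraries, ordered by the smaller change, fewer where fewer qualified. Of the genes so selected, 2 are not reported here. The members and lists were chosen with earlier results of these data known, so no pattern shown is independent support.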

Additional observations from a re-analysis of the deposited data

How the results depend on the processing

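No paired analysis was possible because the groups compared share fewer than 2 replicate numbers. Of 69 recomputed counts, medians and calls, 55 stayed within their margin (1.5 times for a count), and 14 moved. Among those that moved, the p53 target median changed sign in CDK16-sh2 (library totals and RPKM) and at 5 µM Reb (GC and length trends removed). The count of genes past 2-fold was 1 in place of 0 in CDK16-sh1 at 1.5-fold (GADD45A), and 1 in place of 0 in CDK16-sh2 with DESeq2 size factors, library totals, RPKM, GC and length trends removed (CDKN2C in each), or 1.5-fold (CDKN2C). It was 1 in place of 2 at 1 µM Reb with a mean of at least 5 CPM, since CDKN1C is dropped. The median of the p53 targets moved in CDK16-sh2 from 0.07 to -0.13 by library totals and -0.12 by RPKM. At 5 µM Reb it moved from -0.20 to -0.88 by library totals, -0.79 by RPKM, -0.013 at 5 CPM and 0.0036 with GC and length trends removed. Of the 7 genes, 3 in place of 0 were called with dose as a linear term. The cause of these moves was not tested, beyond the scaling itself.

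Of 26 member values tested, the sign differed from the TMM value in 2 by library totals and in 2 by RPKM (CDKN1B and MDM2 in CDK16-sh2), in 4 with GC and length trends removed (CDKN1A and CDKN2D in CDK16-sh1, CDKN2D and MDM2 at 1 µM Reb) and in 0 with DESeq2 size factors. At 5 µM Reb every gene of the 7 kept its sign under these 4 settings. With 1 library per condition, differences in culture, RNA handling or sequencing cannot be told apart from the hairpin or the dose, and changes of CDKN1C under about 2-fold were not detectable in the knockdown experiment.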
